A study of Mus musculus with 8 samples.

Results

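Pax8, Barx1, Prrx1, Pitx1, Tbx1, Tbx18, Hand2, En2, Msx2 and Foxd3 are transcription factor genes known from mesoderm, neural crest, limb or other tissues outside the neural retina. They are 10 of the 16096 genes counted in an RNA sequencing study of peripheral retina from mouse embryos of the C57BL/6 background at embryonic day 16.5. They were picked by name, with their low control counts and their counts in the mutant libraries in view, so their values are given below as a description. How many of them the fits over all genes called is given beside the share of all genes called, and nothing is read from it. The study holds 4 libraries labelled Pax6alpha-Cre:Ezh2fl/null, called cKO here for conditional knockout, and 4 labelled Pax6alpha-Cre:Ezh2fl/+, called control. Both genotypes carry the Cre driver and a loxP-flanked Ezh2 allele, and they differ in the other allele, which is null in one and wild type in the other. The driver uses a Pax6 enhancer active in peripheral retinal progenitors, so cells of the dissected tissue in which Cre did not act keep 1 working Ezh2 allele in the cKO libraries. The labels do not say which embryo or litter a library came from, and p-values given for other genes measure only the spread between these libraries.

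Ezh2 is the catalytic subunit of Polycomb repressive complex 2, which methylates lysine residues of histone H3 and keeps developmental regulators of other lineages silent. Genes of this kind carry the Polycomb mark in most cells that do not use them. They are switched on in body regions such as the branchial arches, limb buds, heart, somites, kidney or midbrain, where they direct cell fate. In bulk tissue, fewer cells making a transcript and less transcript per cell cannot be told apart.

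Total counts ran from 13994825 to 18391647 per library, so a single count was worth 0.0537 to 0.0749 CPM (counts scaled to a common normalized library size). In replicates 1 to 4 the Ezh2 level was 276, 251, 255 and 220 CPM for cKO, and 235, 230, 197 and 207 CPM for control, so it was not lower in the libraries labelled cKO (log2 0.21, SE 0.07, adjusted p = 0.0701 by edgeR). The labels do not name the deleted exons, and a count over the whole gene cannot show their loss. Directions below follow the labels. The 9 retinal markers looked at, Pax6 and Rax among them, summed to 2190 to 2370 CPM in the cKO libraries and 2260 to 2450 CPM in the controls. By Xist and Y-linked genes, cKO replicates 2 and 3 were female and the other 6 libraries male, and lens markers stood at 8.94 CPM in cKO replicate 2 and 13.4 CPM in control replicate 1 against 1.14 to 2.36 CPM elsewhere.

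The promoters of these genes were not alike. RefSeq holds a promoter on build GRCm38.p6 for 8 of the 10 genes, 9 promoters in all since Tbx1 has 2. The following 250 bases, which end just before the transcription start, show how far CpG density differed between genes with no or hardly any control count, with each CpG in capitals. They are Pax8 (chr2:24475600-24475849, minus strand), Hand2 (chr8:57320733-57320982, plus strand) and Foxd3 (chr4:99656049-99656298, plus strand).
Pax8: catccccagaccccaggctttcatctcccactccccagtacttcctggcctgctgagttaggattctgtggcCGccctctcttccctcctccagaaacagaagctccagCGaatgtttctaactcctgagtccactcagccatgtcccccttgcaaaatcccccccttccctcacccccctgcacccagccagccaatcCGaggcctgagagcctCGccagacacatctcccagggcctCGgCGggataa
Hand2: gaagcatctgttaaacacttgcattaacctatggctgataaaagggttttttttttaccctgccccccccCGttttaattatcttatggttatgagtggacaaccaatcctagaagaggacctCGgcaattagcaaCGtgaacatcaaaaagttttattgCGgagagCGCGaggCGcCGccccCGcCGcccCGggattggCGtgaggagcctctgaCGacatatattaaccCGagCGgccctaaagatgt
Foxd3: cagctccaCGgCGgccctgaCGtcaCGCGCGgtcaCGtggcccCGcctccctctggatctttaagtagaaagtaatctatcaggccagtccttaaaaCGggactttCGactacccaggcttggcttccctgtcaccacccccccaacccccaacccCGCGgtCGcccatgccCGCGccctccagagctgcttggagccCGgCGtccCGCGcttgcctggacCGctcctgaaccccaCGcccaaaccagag
Pax8 holds 6 CpG in this stretch, Hand2 15 and Foxd3 21. Over the full RefSeq window of 300 bases, from 250 before to 50 after the start, the ratio of observed to expected CpG was lowest for Pax8 (0.288) and Prrx1 (0.360) and highest for Hand2 (0.897) and Barx1 (0.940). These sit at percentiles 12.8, 17.0, 74.9 and 81.0 among the 14003 promoters matched to genes of the table. The median over the 9 promoters was 0.755, and over all 14003 it was 0.735, an order that turned in the 250 bases before the start alone (0.676 and 0.701). A ratio over 0.6 together with a G+C share over 50% was met by 7 of the 9 promoters and by 63.0% of all. The letters TATAAA, searched on both strands, occur in 0 of the 9 and in 7.07% of all promoters, and the letters CCAAT, searched likewise, in 4 of the 9 and 37.4% of all. Pax8 and Barx1, at opposite ends in CpG ratio, were the 2 genes of the set with the most cKO counts after Prrx1.

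Counts of 9 of the 10 genes were higher in the cKO libraries, and for 8 of them each cKO library lay above each control library in CPM. Among all 16096 genes, 10.1% were arranged that way, and 17.1% of the genes with a mean control level under 1 CPM. As the genes were chosen with these counts in view, nothing is read from that difference. The standard filter on low counts left 3 of the 10 for testing, Pax8, Barx1 and Prrx1. All 3 of those were called higher in the edgeR fit over 15014 genes, in which 8.35% of genes were called higher. With no filter 9 of the 10 were called higher, beside 8.23% of all genes, and DESeq2 called 8, beside 7.26% of all. The other 7 had too few counts for the standard filter, and a gene with hardly any control count passes it only through its cKO counts.

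**Figure D1:**
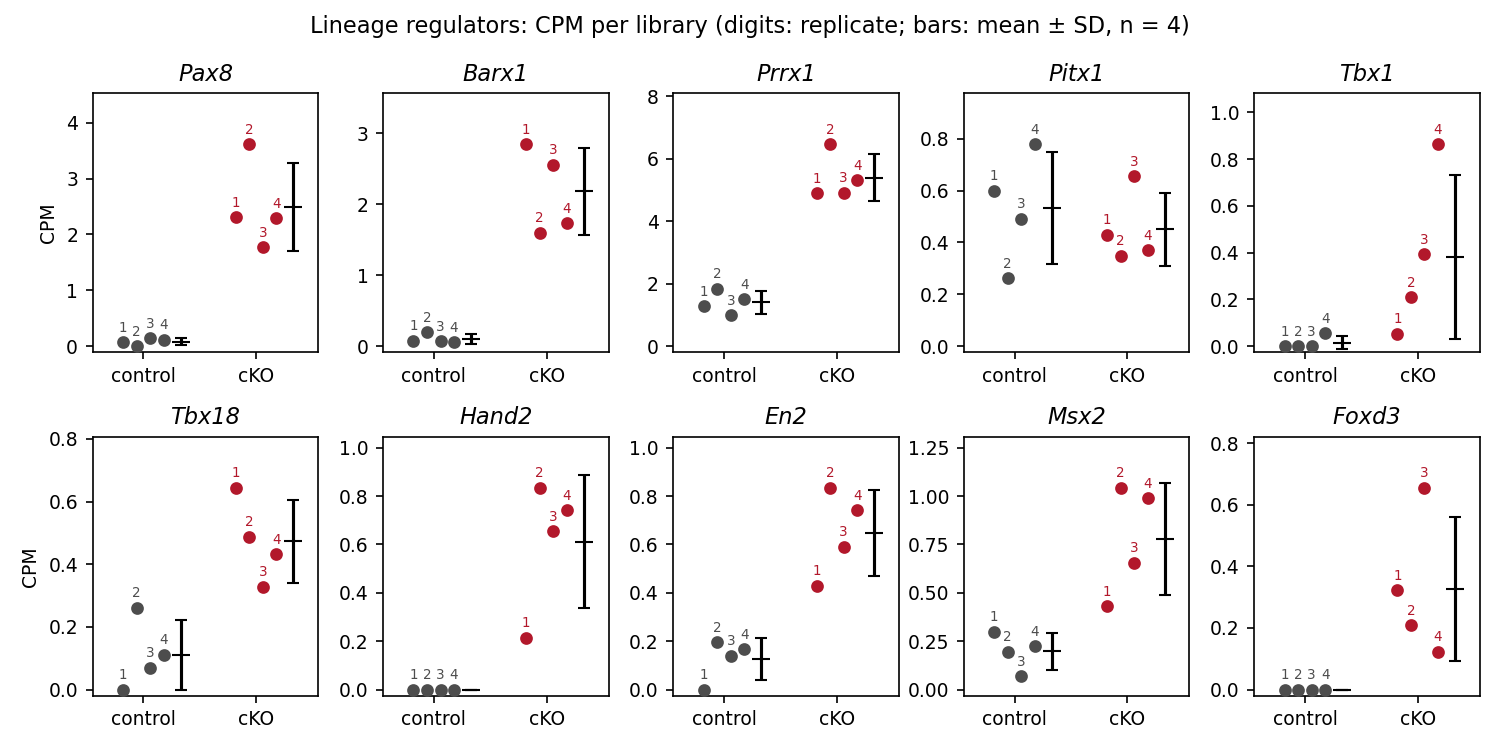
CPM of each of the 10 genes in the 4 control (grey) and 4 cKO (red) libraries on linear axes that differ between panels, with digits giving the replicate and bars the mean ± SD (n = 4). The groups are apart for 8 genes, they touch for Tbx1 through cKO replicate 1, and for Pitx1 they overlap.

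Pax8, a paired box factor needed for the thyroid and the kidney, was counted 43, 52, 27 and 37 times in cKO replicates 1 to 4 and 1, 0, 2 and 2 times in control replicates 1 to 4. Each cKO library was far above the highest control. Pax8 averaged 2.50 ± 0.789 CPM in the cKO group and 0.0816 ± 0.0606 CPM in the control group (SD, n = 4 each). The summed counts of 159 and 5 give a ratio of 30.0, with a 95% interval of 12.6 to 93.8 that covers counting error only, as do all such intervals here. The log2 fold change from the fit was 4.79 (SE 0.44).

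Barx1, a homeobox gene of stomach mesenchyme and the developing face, had 53, 23, 39 and 28 counts in the cKO libraries and 1, 3, 1 and 1 in the controls. Its order across the cKO libraries was not that of Pax8: replicate 1 was highest for Barx1 and replicate 2 for Pax8. Barx1 averaged 2.18 ± 0.613 CPM in the cKO group and 0.0993 ± 0.0653 CPM in the control group (SD, n = 4 each), with a ratio of summed counts of 22.5 (95% counting interval 10.1 to 62.4) and a log2 fold change of 4.38 (SE 0.40).

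Prrx1, a homeobox gene of limb and facial mesenchyme, had the highest control counts of the set. It had 91, 93, 75 and 86 counts in the cKO libraries and 17, 28, 14 and 27 in the controls. The lowest cKO library, at 4.89 CPM, stood well above the highest control, at 1.83 CPM. Prrx1 averaged 5.40 ± 0.742 CPM in the cKO group and 1.40 ± 0.360 CPM in the control group (SD, n = 4 each), the ratio was 3.79 (95% counting interval 2.98 to 4.86) and the log2 fold change 1.93 (SE 0.18). The ratio of Prrx1 was thus smaller than those of Pax8 and Barx1, whose counting intervals lie above its own.

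Hand2 and Foxd3 had no count in any control library. Hand2, a basic helix-loop-helix factor of the heart, limb bud and sympathetic neurons, was counted 4, 12, 10 and 12 times in cKO replicates 1 to 4. Its sum of 38 counts was at least 12.0-fold higher than the control group, taken at 3 counts in all, the floor that 0 counts allow. That bound takes the cKO counts as exact, and the lower end of the 95% counting interval, as used for the other genes, was 9.27. Foxd3, a forkhead factor of premigratory neural crest, had 6, 3, 10 and 2 counts, a sum of 21 that was at least 6.61-fold higher than controls taken at that floor, with 4.92 as the lower end of its counting interval. At these depths 0 counts in a control library allow a level of up to 0.167 to 0.225 CPM. Foxd3 in cKO replicate 2, at 0.209 CPM, and Hand2 in cKO replicate 1, at 0.215 CPM, lie within that range. The lowest cKO value of Foxd3, 0.124 CPM in replicate 4, lies under it. The 2 counts of Foxd3 in that library have an exact 95% Poisson interval of 0.242 to 7.22 counts.

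The homeobox genes En2 and Msx2 had a few control counts. En2, which patterns the midbrain and hindbrain border, had 8, 12, 9 and 12 counts in the cKO libraries and 0, 3, 2 and 3 in the controls. Its ratio was 4.84 (95% counting interval 2.24 to 12.0), with means of 0.649 ± 0.178 and 0.126 ± 0.0871 CPM (SD, n = 4 each). Msx2, a factor of limb, skull and neural crest that responds to bone morphogenetic proteins, had 8, 15, 10 and 16 counts against 4, 3, 1 and 4. Its ratio was 3.86 (2.02 to 7.97), and the means were 0.780 ± 0.289 and 0.197 ± 0.0953 CPM. For both genes cKO replicate 1 was the lowest of its group and still above each control.

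The T-box genes Tbx18 and Tbx1 rested on few counts. Tbx18, a gene of the sinus horn of the heart, the somites and the ureter mesenchyme, had 12, 7, 5 and 7 counts in the cKO libraries and 0, 4, 1 and 2 in the controls. The ratio was 4.18 (95% counting interval 1.81 to 11.3), and it was 7.31 without control replicate 2, which held 4 of the 7 control counts. Tbx1, a gene of pharyngeal mesoderm and head muscle, had 1, 3, 6 and 14 counts in cKO replicates 1 to 4 and 0, 0, 0 and 1 in the controls. Its groups met, since cKO replicate 1 at 0.0537 CPM lay just under control replicate 4 at 0.0557 CPM. The Tbx1 ratio of 22.7 has a counting interval of 3.70 to 932. Without cKO replicate 4, which held 14 of 24 counts, it was 12.6, and without control replicate 4 it was at least 5.33 against the floor.

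Pitx1, a homeobox gene of the hindlimb and the pituitary, was not higher in the cKO libraries. It had 8, 5, 10 and 6 counts there and 8, 4, 7 and 14 in the controls. The highest library was control replicate 4, and the groups overlapped over most of their range. Pitx1 averaged 0.451 ± 0.141 CPM in the cKO group and 0.533 ± 0.216 CPM in the control group (SD, n = 4 each). Its ratio of 0.830 has a 95% counting interval of 0.486 to 1.41. A rise of the size seen for the other 9 genes lies outside that interval, the smallest ratio among them being the 3.79 of Prrx1. The plot of ratios with their counting intervals shows Pitx1 alone across 1.

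**Figure D2:**
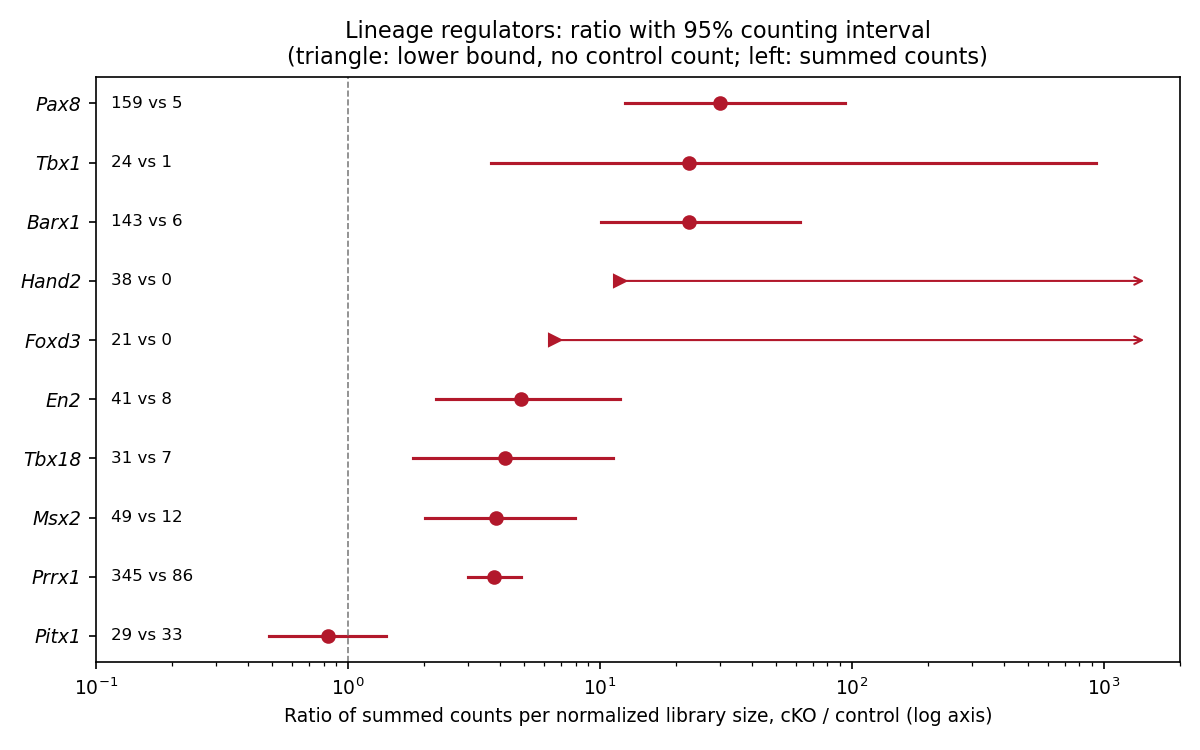
Ratio of summed counts, cKO over control and scaled by normalized library size, on a log axis, with 95% counting intervals as lines and the summed counts of both groups at the left. Triangles mark Hand2 and Foxd3 against a floor of 3 control counts, since neither had a control count; they take the cKO counts as exact. Of the 10 genes, Pitx1 has an interval that includes 1.

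Per unit of gene length these transcripts stayed rare in the cKO libraries. On the scale of the authors' FPKM (counts scaled by gene length and library size), the mean cKO level was 1.58 ± 0.454 for Barx1, 0.537 ± 0.195 for Msx2, 0.494 ± 0.0569 for Prrx1 and 0.412 ± 0.119 for Pax8 (SD, n = 4). Msx2, Prrx1 and Pax8 did not differ beyond their spread. Then came Hand2 at 0.275, Tbx1 at 0.218, Pitx1 at 0.172, Foxd3 at 0.139, En2 at 0.131 and Tbx18 at 0.102, neighbours that each differed by less than the larger of their SDs. Barx1 was at percentile 24.1 of the mean cKO FPKM of the 16096 genes, and the other 9 lay between percentile 0.857 (Tbx18) and 11.4 (Msx2). In the controls the highest of the set by FPKM was Pitx1, at 0.199 ± 0.0844 and percentile 5.55. By percentile, Pax8 moved from 0.248 in the controls to 8.88 in the cKO libraries.

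The cKO libraries did not rank the same way for each gene. Replicate 1 was highest for Barx1 and Tbx18 and lowest for Prrx1, Tbx1, Hand2, En2 and Msx2. Replicate 2 was highest for Pax8, Prrx1, Hand2, En2 and Msx2 and lowest for Barx1 and Pitx1. The level summed over the 10 genes was nonetheless even, at 12.6, 15.7, 13.2 and 13.6 CPM in cKO replicates 1 to 4 against 2.32, 2.95, 1.96 and 3.01 CPM in control replicates 1 to 4. Without Prrx1 the sums were 8.35 ± 0.622 and 1.16 ± 0.234 CPM (SD, n = 4 each). Outside these genes and the Hox clusters, the 5 transcripts whose log2 CPM followed that sum most closely over the 8 libraries were Aldh1a2, a retinoic acid synthesis enzyme, Bves, a membrane protein of heart muscle, H2-K1, a class I histocompatibility antigen, Sgk3, a kinase, and Tal1, a blood and interneuron factor. Pearson's r on log2(CPM + 0.5) over the 8 libraries was 0.996 to 0.998 for these, a description only, because the libraries fall into the 2 groups that the genes were chosen on.

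Markers of neighbouring tissues varied between libraries, and some of them moved with Tbx1. All 8 mesenchyme markers looked at are in the table, and they summed to 36.8, 58.4, 87.7 and 92.1 CPM in cKO replicates 1 to 4 and to 44.3, 61.1, 39.4 and 70.6 CPM in control replicates 1 to 4. Of these markers Lum was at 0 in cKO replicate 1, and 1 of the 7 that were tested was called higher, Pdgfra, at 14.02 against 6.99 CPM. The 8 muscle markers in the table, of 10 looked at, summed to 4.95, 19.0, 22.9 and 26.6 CPM and to 11.0, 13.8, 5.02 and 10.4 CPM in the same order. The 4 cKO libraries took the same order for Tbx1 as for the mesenchyme and muscle sums; the part of neighbouring tissue in the Tbx1 counts was not tested. Replicate 1 of the cKO group had the lowest sum of the 8 libraries on both lists. In that library Pax8, Barx1, Prrx1, Tbx18, Hand2, En2, Msx2 and Foxd3 were above each control library, with Barx1 and Tbx18 at their highest and Prrx1, Hand2, En2 and Msx2, like Tbx1, at their lowest of the cKO group. The part of neighbouring tissue in these counts was not tested either. Of the endothelial markers Pecam1 and Cdh5 had 2 to 16 counts in each library. Kdr, which retinal cells also make, supplied nearly all of that list's sum, 252 to 303 CPM in cKO and 321 to 348 CPM in control libraries. Kdr itself was called lower, at 281 against 332 CPM (log2 -0.24, adjusted p = 0.00697 by edgeR).

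**Figure D3:**
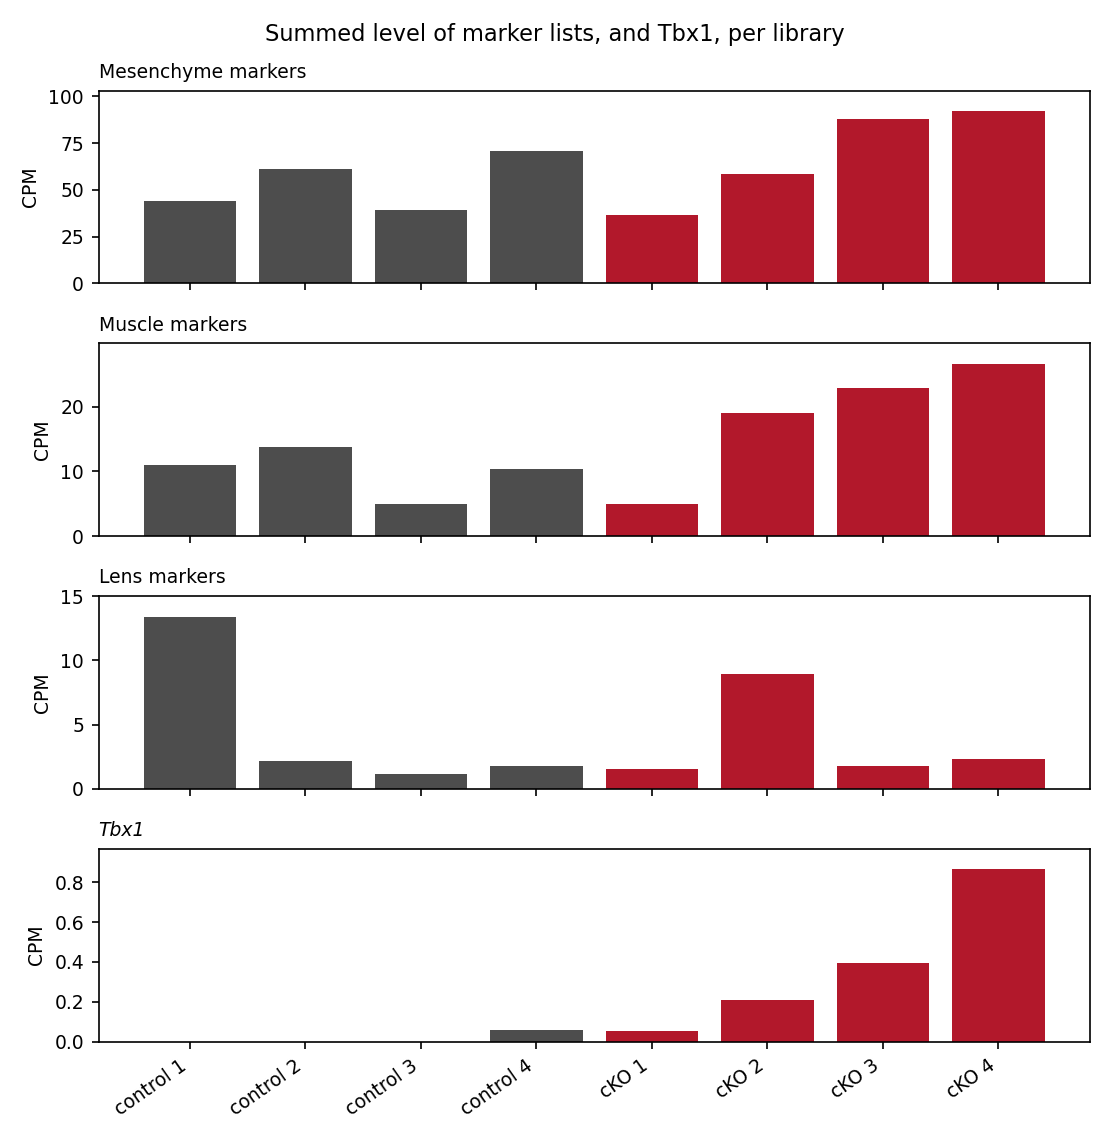
Summed CPM of the mesenchyme, muscle and lens marker lists and the CPM of Tbx1 in each library, as bars from 0 (grey control, red cKO, no error bars because each bar is 1 library). cKO replicate 1 has the lowest mesenchyme and muscle sums, 36.8 and 4.95 CPM, and lens markers stand out in control replicate 1 and cKO replicate 2.

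Several genes of the same families rose. Of 27 relatives, such as Pitx3 for Pitx1 or Tbx15 for Tbx18, 15 are among the counted genes and 10 were tested, with 5 higher, 1 lower and 4 not called, at a median log2 fold change of 0.40. Over all 15014 genes 8.35% were higher and 3.46% lower, with a median of -0.007. Of the 10 tested, 4 averaged less than 1 CPM in the controls and so passed the filter through their cKO counts. Tbr1, a factor of cortical and some ganglion cell neurons, rose from 0.567 ± 0.146 to 4.88 ± 0.453 CPM (log2 3.11, SE 0.20, adjusted p = 1.15e-07). Pitx3, a lens and dopamine neuron gene, rose from 0.246 ± 0.0505 to 0.890 ± 0.226 CPM (log2 1.83, SE 0.34, adjusted p = 0.00186). The skeletal and dermal gene Tbx15 rose by log2 2.57 and the dorsal retina gene Tbx5 by 0.50. Eomes, which retinal ganglion cells also use, fell from 65.4 ± 4.50 to 41.1 ± 4.84 CPM (log2 -0.67, SE 0.08).

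The summed cKO and control counts were 58 and 15 for Pitx3 and 29 and 33 for Pitx1; the difference between these relatives was not tested. Of the relatives that were counted but not tested, Pax5, a midbrain and B cell relative of Pax8, had 58 counts in the cKO libraries and 8 in the controls, without overlap between the groups in CPM. Msx1, the close relative of Msx2, had 41, 30, 18 and 9 counts in cKO replicates 1 to 4 and 8, 3, 3 and 3 in control replicates 1 to 4. Its highest library was cKO replicate 1, which was the lowest of its group for Msx2, and cKO replicate 4 fell within the control range. Tbx21 had 42 and 11 summed counts, Prrx2 26 and 6, and Foxd2 26 and 13. Of the T-box relatives that were tested and not called, Tbx2 stood at 101.6 and 102.5 CPM (log2 -0.01), Tbx20 at 18.7 and 19.1 CPM (log2 -0.02) and Tbx3 at 47.9 and 38.7 CPM (log2 0.31, adjusted p = 0.0556). The 12 remaining relatives, Barx2, Hand1 and En1 among them, are not analysed here.

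Other regulators of mesoderm, neural crest and limb were called in both directions, with more and larger increases. Of 71 such regulators 35 are among the counted genes and 30 were tested, with 15 higher, 4 lower and 11 not called, at a median log2 fold change of 0.56. Over all 15014 genes tested 8.35% were higher and 3.46% lower, with a median of -0.007. Of the 30 regulators tested, 8 averaged less than 1 CPM in the controls and so passed the filter through their cKO counts. Of the mesoderm genes 4 of 6 rose, of the neural crest genes 6 of 12 and of the limb genes 5 of 12. Eya1, a phosphatase and coactivator of kidney and ear development, rose from 12.1 ± 1.08 to 23.1 ± 2.10 CPM (log2 0.93, SE 0.09, adjusted p = 4.49e-06). Alx1, a gene of craniofacial neural crest, rose from 0.0829 ± 0.0898 to 5.08 ± 0.461 CPM (log2 5.81, SE 0.32), and the neural crest list also held Zic1 (log2 0.82) and Sox5 (1.16). Among limb genes Sall1 rose by log2 2.62, Shox2 by 1.75 and Lhx9 by 1.41. The 4 that fell, named after their values were seen, were Meis1 (log2 -0.27), Sox9 (-0.38), Gli3 (-0.21) and Isl1 (-0.17), each at 38.4 CPM or more in both groups.

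**Figure D4:**
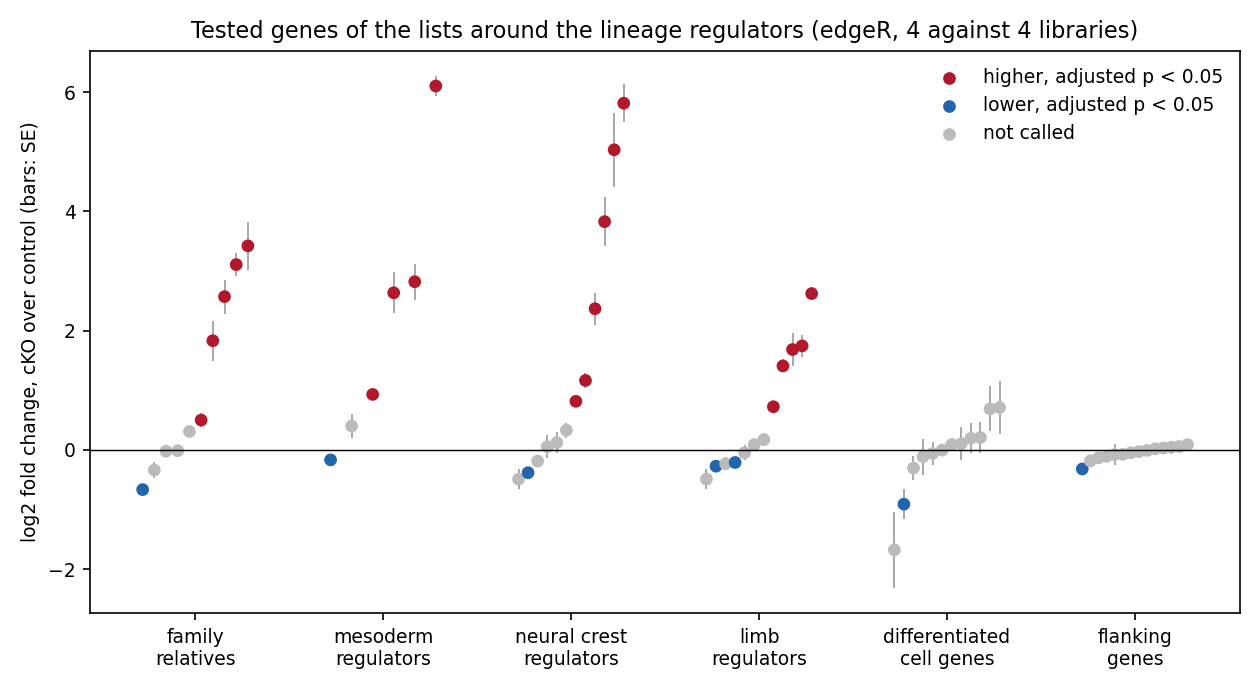
Log2 fold change with SE of each tested gene in 6 lists, red where higher and blue where lower at an adjusted p under 0.05 (edgeR) and grey where not called. Large increases, such as log2 5.81 for Alx1, appear among the regulators. Cnpy1, a flanking gene under the filter on low counts, is not drawn.

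Genes of differentiated cells from tissues in which such regulators act were called about as often as all genes. The list held 33 genes of thyroid, pituitary, heart, muscle, skeleton, nerve glia, kidney and stomach, of which 15 are among the counted genes and 12 were tested. In edgeR 0 were higher and 1 lower, with 0 higher at an unadjusted p under 0.05 and 0 higher in DESeq2; over all genes 8.35% were higher and 3.46% lower, so with 12 genes the counts do not set the list apart. The one that fell was Tnnt2, a heart troponin, at 0.848 ± 0.148 against 1.60 ± 0.403 CPM (log2 -0.91, SE 0.25, adjusted p = 0.0279), which did not pass in 9 of 17 alternatives, including those without cKO replicate 1 or 2 or without control replicate 1, 2 or 3. Of genes named after their values were seen, the thyrotropin receptor gene Tshr was at 28.5 ± 3.19 and 26.7 ± 4.26 CPM, the thyroid iodide transporter gene Slc5a5 had 44 and 30 summed counts, and the cartilage collagen gene Col2a1 was at 76.7 and 76.9 CPM. Muscle actins Acta1 (log2 0.69, adjusted p = 0.295) and Actc1 (0.71, adjusted p = 0.380) belong to the muscle list above. Without cKO replicate 1, the library with the lowest muscle sum, 2 genes were called higher, Acta1 and Actc1.

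The nearest counted protein-coding genes on either side were looked at within 500 kb. Of them 1, Cnpy1 beside En2, had more counts in each cKO library than in any control. All cKO libraries lay above all controls in CPM for 10.1% of all 16096 genes. The share was 17.1% among genes with a mean control level under 1 CPM, such as Cnpy1 (0.149 CPM), so nothing is read from it. In all there were 17 such neighbours, 14 of them tested, with 0 higher and 1 lower in edgeR and a median log2 fold change of -0.04. With 14 genes these counts are near the shares over all genes, 8.35% higher and 3.46% lower, so they set the neighbours apart in neither direction. At an unadjusted p under 0.05, 0 were higher, and DESeq2 called 1 higher. Next to Pax8 (chromosome 2, 24420560 to 24475599 on mm10), the calcium channel gene Cacna1b was at log2 0.02 (SE 0.06), and Psd4, 5.6 kb away, had 32 counts in the cKO libraries and 18 in the controls. Beside Barx1 (chromosome 13, 48662998 to 48666507) lie Ptpdc1 (log2 0.06) and Phf2 (-0.13), and beside Prrx1 (chromosome 1, 163245119 to 163313710) lie Gorab (-0.07) and Fmo1, with 25 and 23 counts. Gnb1l and Gp1bb, which flank Tbx1 at 14.3 and 29.6 kb, were at log2 0.05 and 0.03. The Hand2 neighbour Sap30 was at -0.03, the Msx2 neighbour Sptlc1 at -0.01, and the Foxd3 neighbours Alg6 and Atg4c at -0.18 and -0.11. Pcbd2 and H2afy, which flank Pitx1, were at -0.08 and -0.05, and 4922501C03Rik, 447.3 kb from Tbx18, was at 0.09.

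Both neighbours of En2 (chromosome 5, 28165694 to 28172166) differed between the groups. On one side Insig1, a sterol sensor, fell from 132 ± 13.6 to 106 ± 4.23 CPM (log2 -0.32, SE 0.06, adjusted p = 0.00335). On the other, 28.7 kb away, Cnpy1, a regulator of fibroblast growth factor signalling at the midbrain border, had 10, 9, 15 and 12 counts in the cKO libraries and 3, 1, 2 and 3 in the controls. Each cKO library of Cnpy1 was above each control. It was too low for the standard filter and is the neighbour called by DESeq2. Of 11 midbrain markers looked at, 5 are among the counted genes and 4 were tested, with 2 higher and 0 lower. Over all genes tested 8.35% were higher and 3.46% lower, and with 4 markers nothing is read from these counts. The 2 markers called higher were Fgf8, a signal of that same border, at 0.835 against 0.416 CPM (log2 1.01, adjusted p = 0.0382), and Otx2, which the retina also uses, at 277 against 231 CPM (log2 0.26, adjusted p = 0.00166). Fgf8 had 4 to 8 counts in each control library and passed the filter through its cKO counts. Th (log2 0.21, adjusted p = 0.747) and Nr4a2 (0.33, adjusted p = 0.0618) were not called, and Pax5, under the filter, is described above.

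Transcripts annotated on the opposite strand overlap Pax8, Prrx1, Pitx1, Tbx18, Hand2 and En2. The labels do not say if reads were assigned by strand, so reads from such partners, for example Hand2os1 at Hand2, cannot be told apart from those of the gene.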

How the data were processed

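RNA was measured in 8 libraries. The submitters' processing notes name Novoalign 2.08.01, the mm10 build and DESeq2; the counter, annotation and filter are not stated there or in the labels. The authors deposited whole-number counts per gene and library, which are not normalized, FPKM values, a log2 ratio and a score under a header for an adjusted p; the last pair was not used. The lowest row sum is 18, so genes with fewer reads are outside the table.

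Counts were tested with edgeR 4.0.16 in R 4.3.3: TMM, filterByExpr with a minimum count of 10, glmQLFit and glmQLFTest, 4 against 4 libraries without covariates, and Benjamini-Hochberg adjustment over all 15014 genes tested, called under 0.05. The procedure was tested on simulated data. CPM use normalized library sizes; marker sums use total counts. Ratios of summed counts have exact binomial 95% intervals, and a control group at 0 was set to 3 counts over the group. Coordinates are from GENCODE M21 (15833 of 16096 identifiers matched); promoters are from RefSeq. Where a symbol occurs more than once, its most counted entry was taken.

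The genes and lists were chosen with earlier results of these data known. Named genes were the 10, called list members up to 8 per list by smallest p, the flanking genes, the 5 most similar genes and Ezh2; some are not reported here. Alternatives were DESeq2 1.42.0, RLE or no normalization factors, other filters, a replicate block, sex as a covariate, male libraries, libraries without lens counts, each replicate left out and, added after seeing the data, ratios without each library.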

Additional observations from a re-analysis of the deposited data

Results flagged for a closer look

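Among 72 groups of 4 libraries looked at, 6 held a library whose gap to the nearest other exceeded Dixon's 95% critical value, a rule that chance meets in about 1 group in 20. They were Barx1 in control replicate 2 (0.196 CPM, 3 counts where the other controls had 1 each), Tbx1 in control replicate 4 (0.0557 CPM, the single control count), Eya1 in cKO replicate 2 (26.2 CPM), Tbx5 in cKO replicate 4 (22.3 CPM), and the lens marker sums of cKO replicate 2 (8.94 CPM) and control replicate 1 (13.4 CPM).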

How the results depend on the processing

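Over 17 alternatives the log2 fold change ran from 4.40 to 5.11 for Pax8, from 4.15 to 4.91 for Barx1 and down to 1.79 for Prrx1. The number of the 10 genes called higher, 3, became 8 with DESeq2 and 9 with no filter on low counts (7.26% and 8.23% of all genes tested there), since both test the genes that the standard filter leaves out, and 3 to 5 with a replicate left out (5 without control replicate 1, 2 or 3). Relatives called higher, 5, became 9 with DESeq2 and 8 with no filter, and 5 to 8 with a replicate left out (8 without control replicate 2), with 1 to 2 lower. Flanking genes called higher, 0, became 1 with DESeq2 and 1 with no filter, Cnpy1 in both, and stayed at 0 higher and 1 lower with any replicate left out. Regulators called higher ran from 14 to 16; those called lower, 4, were 2 by library size alone, 2 with male libraries alone and 2 with sex as a covariate, and 2 to 5 with a replicate left out. The 1 differentiated-cell gene called lower became 0 with DESeq2, male libraries alone, sex as a covariate and without the libraries with lens counts; with a replicate left out 0 to 2 were lower and 0 to 2 higher (2 higher without cKO replicate 1). Over all genes, 1253 higher and 520 lower calls became 800 and 255 with male libraries alone, 795 and 246 with sex as a covariate, 1008 to 1233 and 329 to 667 with a replicate left out (329 without control replicate 3), and 273 and 323 were lower by library size alone and without the libraries with lens counts; fewer libraries were tested in part of these, and otherwise the cause was not tested. With the replicate number as a block, 1179 genes were higher and 497 lower, relatives lower became 2, and other list counts were as before; same-numbered libraries share only a number, as their deviations correlated at -0.088 to 0.232 and not each best with its own number. Counts of 0 to 16 per library limit Tbx1, Tbx18, Foxd3, Hand2, En2, Msx2 and Pitx1 to the intervals given. In the 250 bases before the start alone, the promoter median of observed to expected CpG was 0.676 against 0.701 over all promoters, so below it rather than above, and 5 of 9 promoters against 57.9% of all met the CpG-rich limits.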
